A study of Mus musculus with 4 samples.

Results

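The beta-1 integrin gene Itgb1 and 7 genes for alpha chains that pair with it (Itga1, Itga2, Itga3, Itga4, Itga5, Itga6 and Itga9) were described in regulatory T cells of the mouse spleen with and without Nrp1. These are 8 of the 18193 genes that the annotation lists alone on a probe set. They were represented by 26 of the 45101 probe sets on the array, taken as every probe set listed with one of these genes alone. No further probe set was listed with a member together with another gene (0 probe sets). The genes were chosen with the difference between Nrp1-positive and Nrp1-negative cells already known, so this difference is given below as a description without a test. Of the 26 probe sets, 12 passed a filter at percentile 50 of mean level, and they belonged to 5 of the 8 genes. The member nearest above that limit was an Itga9 probe set, at a mean log2 level of 6.53, and the nearest below was an Itga5 probe set, at 6.22, with the limit at 6.43.

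Nrp1 (neuropilin-1) is a surface receptor that binds semaphorins and VEGF family ligands. The cells were CD4+ Foxp3+ cells sorted by flow cytometry from spleens of mice labelled as strain Balb/c Foxp3 GFP, so that all 4 arrays share the reporter strain and the Foxp3 gate. No treatment is given in the labels. The Nrp1-negative and the Nrp1-positive group had 2 arrays each, and both groups carry the replicate numbers 1 and 2. The mice were 4 to 6 weeks old, except on the array titled Nrp1-negative replicate 1, where the age is 4 to 8 weeks. On that array the source name and cell type fields read as Nrp1-positive, against the title, and it was placed by its title. The labels do not say how many mice or sorts stand behind an array, so any p-value below measures only the spread between these arrays, which may be technical.

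Integrins are pairs of an alpha and a beta chain that span the membrane, bind extracellular matrix or counter-receptors outside the cell, and connect to actin inside it. The beta-1 chain reaches the surface only in a pair, and its alpha partner sets the ligand: collagens for alpha-1 and alpha-2, laminins for alpha-3 and alpha-6, fibronectin for alpha-5, and VCAM-1 and fibronectin for alpha-4. On T cells the alpha-4 beta-1 pair is known as VLA-4 and serves adhesion to endothelium and stroma. Alpha-4 also pairs with beta-7, and alpha-6 also with beta-4, so the RNA of an alpha chain need not track that of beta-1. RNA levels do not give the amount of paired protein at the surface.

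The sort was visible in Nrp1 RNA on every array. Scaled intensities at the Nrp1 probe set of highest mean were 339 and 1223 on Nrp1-negative replicates 1 and 2, and 9344 and 7745 on Nrp1-positive replicates 1 and 2. Probe sets for Cd4, Cd3e and Il2ra passed the filter. At the Cd4 probe set of highest mean, intensities were lower in replicate 2, with 2199 and 723 on the Nrp1-negative and 2261 and 755 on the Nrp1-positive arrays. The second Cd4 probe set fell less, from 204 to 142 and from 272 to 198. The only Foxp3 probe set lay below the filter, at intensities of 2.16 to 36.4, so Foxp3 RNA could not be used to check the gate. The authors had scaled both arrays of replicate 1 to a trimmed mean 3.33 times that of both arrays of replicate 2. Intensities are therefore given after bringing all arrays to one trimmed mean, and differences are log2 values of Nrp1-positive minus Nrp1-negative, taken within each replicate number and then averaged. They rest on log2(intensity + 18.3), which understates the difference of dim probe sets.

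Sequences upstream of Itgb1 and Itga4 are shown because these were the beta chain and the one alpha chain whose probe sets were mostly higher in Nrp1-positive cells. Each is the 250 bases before the RefSeq start of the gene on the plus strand of build GRCm38.p6, at chr8:128685404-128685653 for Itgb1 and at chr2:79255176-79255425 for Itga4. Capitals mark matches to any of 6 motifs searched on both strands.
Itgb1: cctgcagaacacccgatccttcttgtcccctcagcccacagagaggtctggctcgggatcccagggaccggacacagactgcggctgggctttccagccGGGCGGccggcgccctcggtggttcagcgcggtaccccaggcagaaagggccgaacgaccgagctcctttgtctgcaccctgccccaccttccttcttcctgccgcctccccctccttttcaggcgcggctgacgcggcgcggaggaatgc
Itga4: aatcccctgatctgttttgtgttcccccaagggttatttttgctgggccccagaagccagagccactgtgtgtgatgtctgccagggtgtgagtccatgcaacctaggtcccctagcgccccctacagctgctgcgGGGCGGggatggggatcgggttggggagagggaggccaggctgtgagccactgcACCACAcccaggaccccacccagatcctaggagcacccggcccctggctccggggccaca
Both windows hold 1 GC box (GGGCGG), starting at base -151 of Itgb1 and base -114 of Itga4, a motif found in 32.7% of all 32851 such windows. The Itga4 window also holds the reverse complement of the RUNX site TGTGGT, starting at base -60, and 14.0% of windows hold that motif on either strand. The capitals do not overlap. Neither window matched the CCAAT box (CCAAT), which 33.8% of windows hold, or the TATA box (TATAAA), which 12.4% hold. The ETS core (CCGGAAG), held by 6.91% of windows, and the forkhead site (GTAAACA), held by 3.17%, were also without a match. The Itgb1 window has 21 CpG dinucleotides and 68.0% G and C, and the Itga4 window has 6 and 64.0%, against medians of 6 and 52.4% over all windows. RefSeq windows were matched for 7 of the 8 genes.

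Itgb1 RNA was higher in Nrp1-positive cells at every probe set and in both replicate numbers. At the probe set of highest mean (1426918_at), intensities were 304 and 616 on Nrp1-negative replicates 1 and 2, and 2166 and 1527 on Nrp1-positive replicates 1 and 2. Both Nrp1-positive arrays thus lay above both Nrp1-negative arrays, with Nrp1-negative replicate 1 the lowest of the 4. The group means were 460 ± 221 and 1847 ± 452 (SD, n = 2), and the difference was 2.76 in replicate 1 and 1.29 in replicate 2, a mean of 2.02 or 4.07-fold. This is more than the replicate numbers differed within a group at that probe set (0.98 in Nrp1-negative and -0.50 in Nrp1-positive cells).

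A separate Itgb1 probe set designed from another transcript record (1452545_a_at) gave a steadier difference. Its intensities were 343 and 425 on the Nrp1-negative arrays and 1478 and 1331 on the Nrp1-positive arrays, replicate 1 first. The groups did not overlap, and the differences of 2.05 and 1.61 were closer to each other than those of the first probe set. The third Itgb1 probe set past the filter, 1427771_x_at, came from the same transcript record as 1452545_a_at. Its suffix marks probes that may also bind other transcripts. It had 58.8 and 60.9 on the Nrp1-negative arrays, below the array medians of 77.8 and 67.4, against 112 and 148 on the Nrp1-positive arrays. Its Nrp1-negative levels lay below the filter limit, so it passed only through the Nrp1-positive arrays. It differed by 0.75 and 1.07, so here the larger difference was in replicate 2.

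The 3 other Itgb1 probe sets lay below the filter and had the same sign. Probe set 1426919_at had 3.45 and 2.14 on the Nrp1-negative arrays and 36.7 and 24.99 on the Nrp1-positive arrays, without overlap. The remaining pair, 1426920_x_at and 1438119_at, had differences of 0.64 and 0.69 in replicate 1 and 0.11 and 0.31 in replicate 2, with overlapping groups. All 6 Itgb1 probe sets were thus higher within both replicate numbers, as were 25.9% of all 45037 probe sets that are not controls. The groups did not overlap, with Nrp1-positive above, at 4 of the 6 and at 13.1% of all probe sets. Both counts come from the comparison the genes were chosen on, and probe sets of 1 gene share its RNA.

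**Figure D1:**
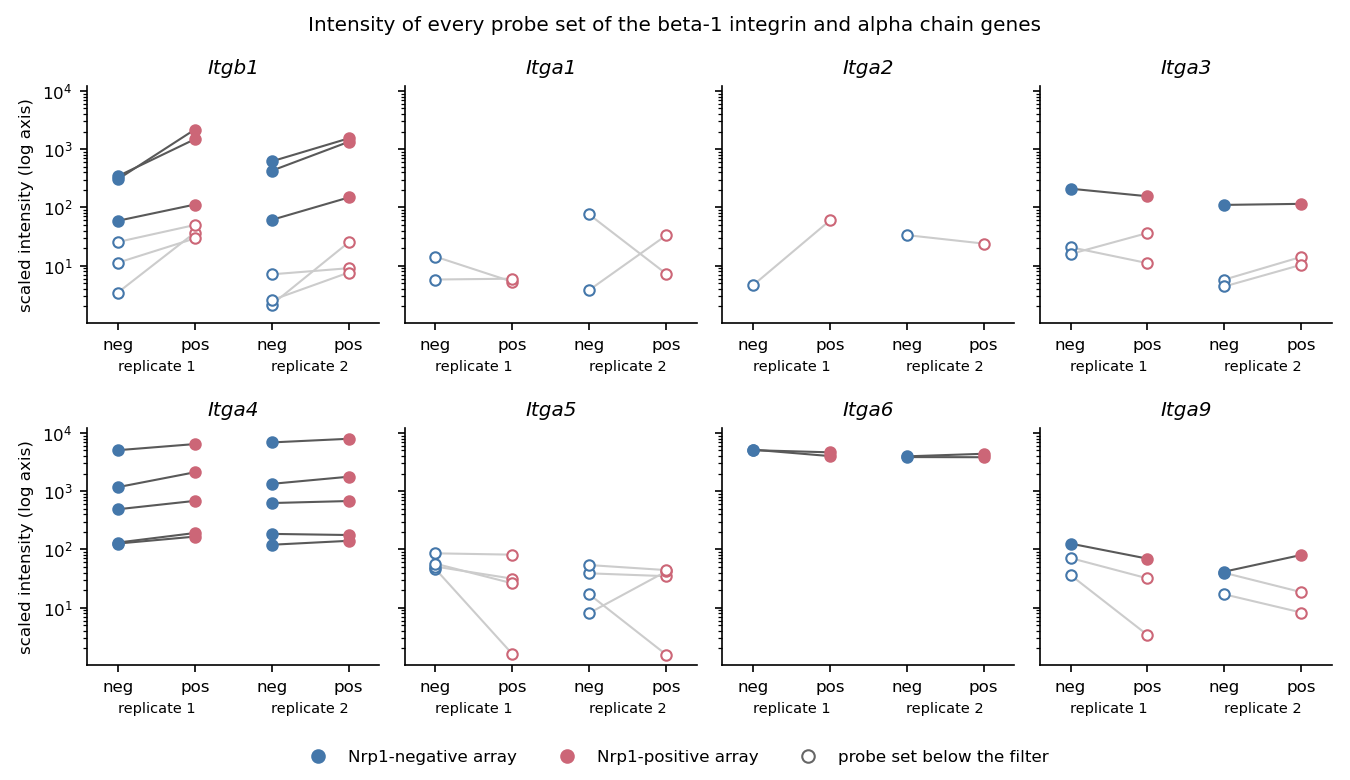
Scaled intensity (log axis) of all 26 probe sets on each array, 1 panel per gene, with lines joining the Nrp1-negative (blue) and Nrp1-positive (red) array of a replicate number and open symbols for probe sets below the filter. All 6 lines of Itgb1 climb in both replicate numbers, and those of Itga4 climb in 9 of 10 cases, by up to 0.84 on the log2 scale. The Itga6 probe set 1422445_at is nearly level, and 1422444_at differs by -0.37 in replicate 1 and -0.01 in replicate 2.

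Nrp1 was higher on Nrp1-negative replicate 2 than on replicate 1 at all 4 of its probe sets, whereas Itgb1 was higher there at 3 of 6 and lower at 3. At the Nrp1 probe set of highest mean, Nrp1 on the Nrp1-negative array was 3.63% of the Nrp1-positive array in replicate 1 and 15.8% in replicate 2. Itgb1 at 1426918_at was 14.0% and 40.3% in the same order. At 1452545_a_at it was 23.2% and 31.9%, and at 1427771_x_at it went the other way, at 52.7% and 41.2%. Of the 3 dim Itgb1 probe sets, 1426920_x_at had the larger share in replicate 2 (51.1% and 78.5%), and 1426919_at (9.39% and 8.56%) and 1438119_at (38.3% and 33.6%) the smaller. Whether cells with Nrp1 in the Nrp1-negative sort had a part in the smaller replicate 2 difference at 1426918_at was not tested. In sorted bulk RNA, fewer cells with Itgb1 and less Itgb1 RNA per cell cannot be told apart.

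Nrp1 was lowest on the array whose labels conflict, at 339 at the Nrp1 probe set of highest mean. The Itgb1 difference was checked for that array. Without Nrp1-negative replicate 1 it was 1.54, and over each array left out in turn it ranged from 1.54 to 2.51. Moving that array to the Nrp1-positive group gave 0.70. Within replicate 2, which does not hold that array, it was 1.29 at the probe set of highest mean.

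Itga4, the alpha-4 chain of VLA-4, was the alpha chain with the most probe sets higher in Nrp1-positive cells. Mean differences ran from 0.21 to 0.62 over its probe sets. At its probe set of highest mean (1436037_at), intensities were 5039 and 6854 on Nrp1-negative replicates 1 and 2, and 6420 and 7911 on Nrp1-positive replicates 1 and 2. Nrp1-positive was higher within each replicate number, but the groups overlapped, since Nrp1-negative replicate 2 lay above Nrp1-positive replicate 1. The difference was 0.35 and 0.21, a mean of 0.28 or 1.21-fold, while the replicate numbers differed by 0.44 and 0.30 within the groups.

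All 5 Itga4 probe sets passed the filter, and 4 of them were higher in Nrp1-positive cells in both replicate numbers, where 28.0% of all probe sets past the filter were. The largest difference was at 1456498_at, with 1169 and 1332 on the Nrp1-negative arrays and 2105 and 1765 on the Nrp1-positive arrays. These groups did not overlap, and the difference was 0.84 and 0.40, a mean of 0.62 or 1.54-fold. A further pair of probe sets without overlap, 1421194_at and 1427615_at, had mean differences of 0.29 and 0.27. Thus 3 of 5 had separate groups, against 11.5% of probe sets past the filter. As for Itgb1, these counts come from the comparison the genes were chosen on. The 5 probe sets share the RNA of 1 gene, so they are not independent of each other. The fifth, 1450155_at, differed by 0.49 in replicate 1 and -0.06 in replicate 2. At 1436037_at the Itga4 difference was 0.06 when Nrp1-negative replicate 1 was left out, and -0.11 when it was moved to the other group.

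Itga6, the laminin-binding alpha-6 chain, was nearly equal in both groups at 1 of its 2 probe sets. Its probe set of highest mean (1422445_at) had intensities of 5044 and 3951 on Nrp1-negative replicates 1 and 2 and of 4632 and 4375 on Nrp1-positive replicates 1 and 2. Both Nrp1-positive values lay between the Nrp1-negative values, with differences of -0.12 and 0.15 and a mean of 0.01. The second probe set, 1422444_at, had 5150 and 3840 on the Nrp1-negative arrays and 3994 and 3817 on the Nrp1-positive arrays, with differences of -0.37 and -0.01. On both probe sets Nrp1-negative replicate 1 was the highest array. Itga6 therefore did not share the pattern of the Itgb1 probe sets past the filter, where that array was the lowest. At the 3 dim Itgb1 probe sets Nrp1-negative replicate 2 was lower.

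Itga3, the other laminin-binding alpha chain, had 1 of 3 probe sets past the filter. It had 209 and 110 on the Nrp1-negative arrays and 155 and 115 on the Nrp1-positive arrays. The groups overlapped, and the difference was -0.39 in replicate 1 and 0.05 in replicate 2. Of the dim Itga3 probe sets, 1460305_at was higher in Nrp1-positive cells in both replicate numbers, by 0.68 and 0.34, with overlapping groups.

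Itga9, a chain related to alpha-4 that binds tenascin-C and VCAM-1, had no difference of one sign at its brightest probe set. This probe set (1460285_at), the only one past the filter, had 126 and 41.4 on the Nrp1-negative arrays and 69.2 and 80.1 on the Nrp1-positive arrays, so that the difference was -0.72 in replicate 1 and 0.72 in replicate 2. The 2 dim Itga9 probe sets had lower values in Nrp1-positive cells, without overlap: 1450029_s_at went from 70.9 and 39.5 to 31.8 and 18.4, and 1420860_at from 36.2 and 16.9 to 3.39 and 8.23.

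The collagen-binding chains Itga1 and Itga2 and the fibronectin receptor chain Itga5 had no probe set past the filter. The single Itga2 probe set had 4.58 and 33.4 on the Nrp1-negative arrays and 59.4 and 23.9 on the Nrp1-positive arrays, with the sign of the difference opposite in the replicate numbers (1.76 and -0.29). Both Itga1 probe sets also overlapped between groups, with intensities from 3.80 to 75.4. Of 4 Itga5 probe sets, 3 had lower values on the Nrp1-positive array of both replicate numbers. At the one of highest mean, 1423267_s_at, the intensities were 85.4 and 38.7 on the Nrp1-negative arrays and 81.1 and 34.6 on the Nrp1-positive arrays, a mean difference of -0.09. The groups did not overlap at 1423268_at, with 45.9 and 16.9 against 1.60 and 1.56, a mean difference of -1.26. They were also separate at 1458996_at, with 56.8 and 53.7 against 26.1 and 44.02, a mean difference of -0.48. The detection calls of the array software were not analysed here, so whether these genes were expressed at all was not settled.

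Among the 20 alpha chain probe sets, 5 were higher in Nrp1-positive cells in both replicate numbers, 6 were lower and 9 had opposite signs. Over all probe sets 25.9% were higher and 24.9% lower, so the alpha chains as a group were near the background. The groups did not overlap at 3 alpha chain probe sets with Nrp1-positive above, all of Itga4, and at 4 with Nrp1-positive below, 2 each of Itga5 and Itga9 and all below the filter, against 13.1% and 12.2% of all probe sets.

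**Figure D2:**
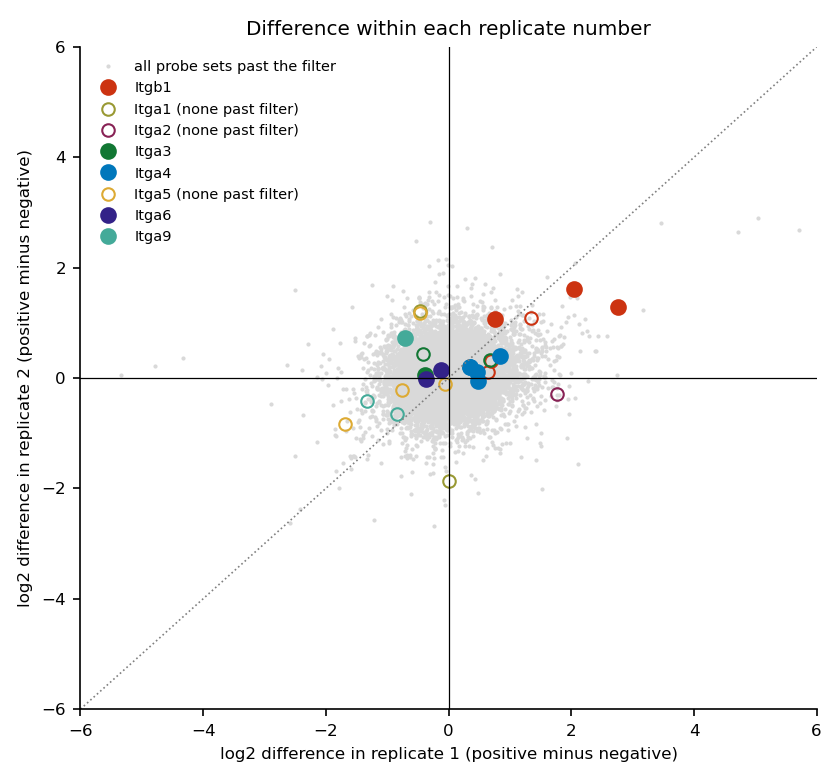
Log2 difference (Nrp1-positive minus Nrp1-negative) in replicate 1 against that in replicate 2 for the 26 member probe sets (colours by gene, open where below the filter) over all probe sets past the filter (grey), with equal differences on the dotted line. The Itgb1 probe sets past the filter lie in the upper right, up to 2.76 and 1.61, Itga4 lies near 0.35 to 0.84 in replicate 1, and of the other alpha chains the Itga5 probe set 1423268_at lies farthest to the lower left, at -1.69 and -0.83.

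Across the other scaling, pseudocounts, averaging of probe sets, left-out arrays and the regrouping of Nrp1-negative replicate 1, the Itgb1 difference stayed above 0, from 0.70 to 2.51. These values are for 1 probe set per gene, that of highest mean, or for the mean of its probe sets. On that basis each of the 7 alpha chains took values on both sides of 0 over the same settings. For Itga4 the probe set was 1436037_at, whose groups overlapped. Its 3 probe sets without overlap were not followed one by one. For Itga2 and Itga4 the only value below 0 came from the regrouping, at -0.29 and -0.11.

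**Figure D3:**
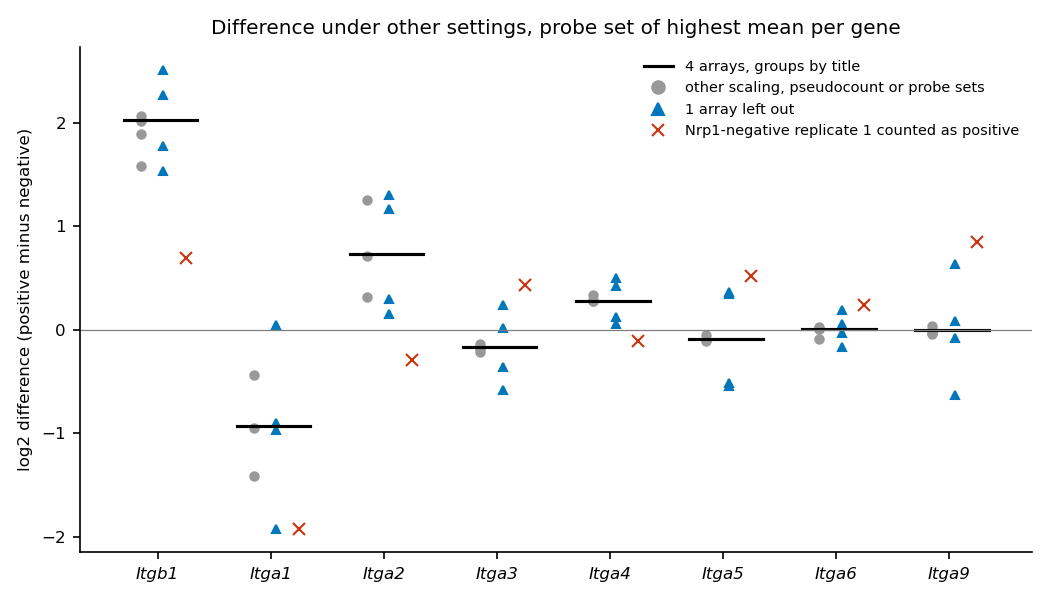
Log2 difference of each member gene at its probe set of highest mean with all 4 arrays (black bars), with other scaling, pseudocounts or the mean of probe sets (grey), with 1 array left out (blue triangles) and with Nrp1-negative replicate 1 moved to the other group (red crosses). Itgb1 stays between 0.70 and 2.51, and the values of each alpha chain lie on both sides of 0, for Itga2 and Itga4 only through the red cross.

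Likeness to Itgb1 over the 4 arrays was measured as the root mean square distance between log2 values centred on each gene's mean, among the 10200 genes past the filter. A gene with the same level on all arrays would have a distance of 1.08. Itga4 had a distance of 0.94 and rank 797 of the other 10199 genes. Itga6 had 1.12 (rank 5742), Itga3 1.27 (rank 9187) and Itga9 1.31 (rank 9462), so these 3 were farther from Itgb1 than a level gene. Of the 4 alpha chains past the filter, Itga4 alone was nearer to Itgb1 than a level gene.

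The 10 nearest genes were Tspan8, Niban2, Mfsd4b4, Hdac9, Slc2a8, Hmgn3, Il18r1, Itga7, Napb and Camk2a, with distances of 0.33 to 0.45. The filter used the mean over all arrays, so a dim gene could enter this ranking through high Nrp1-positive values alone. Tspan8, Mfsd4b4, Hdac9, Slc2a8, Itga7 and Napb had a mean log2 level on the Nrp1-negative arrays below the filter limit. Their place among the nearest genes is therefore partly set by the filter. Tspan8 encodes a tetraspanin, a class of membrane proteins that associate with integrins, and had 30.9 and 57.3 on the Nrp1-negative and 159 and 170 on the Nrp1-positive arrays. The 4 other Tspan8 probe sets lay below the filter, and 2 of them differed in sign from it in replicate 2. Il18r1, a chain of the interleukin-18 receptor, had 751 and 2408 against 3676 and 4390, and Hmgn3, a nucleosome-binding protein gene, had 200.5 and 278 against 784 and 478.

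Itga7 encodes the alpha-7 chain, a laminin receptor best known in muscle that pairs with beta-1, and it was not among the 7 alpha chains above. Its single probe set had intensities of 12.3 and 89.5 on Nrp1-negative replicates 1 and 2 and of 144 and 133 on Nrp1-positive replicates 1 and 2. The groups did not overlap, and the difference was 2.41 in replicate 1 but 0.49 in replicate 2. It did not pass in limma (adjusted p = 1.00, standard error 0.67, and 0.370 with the replicate number as a block). In Nrp1, whose difference was larger than that of Itgb1, the distance was 0.88 and the rank 461. Ikzf2, the gene of the Ikaros-family factor Helios, ranked 62.

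**Figure D4:**
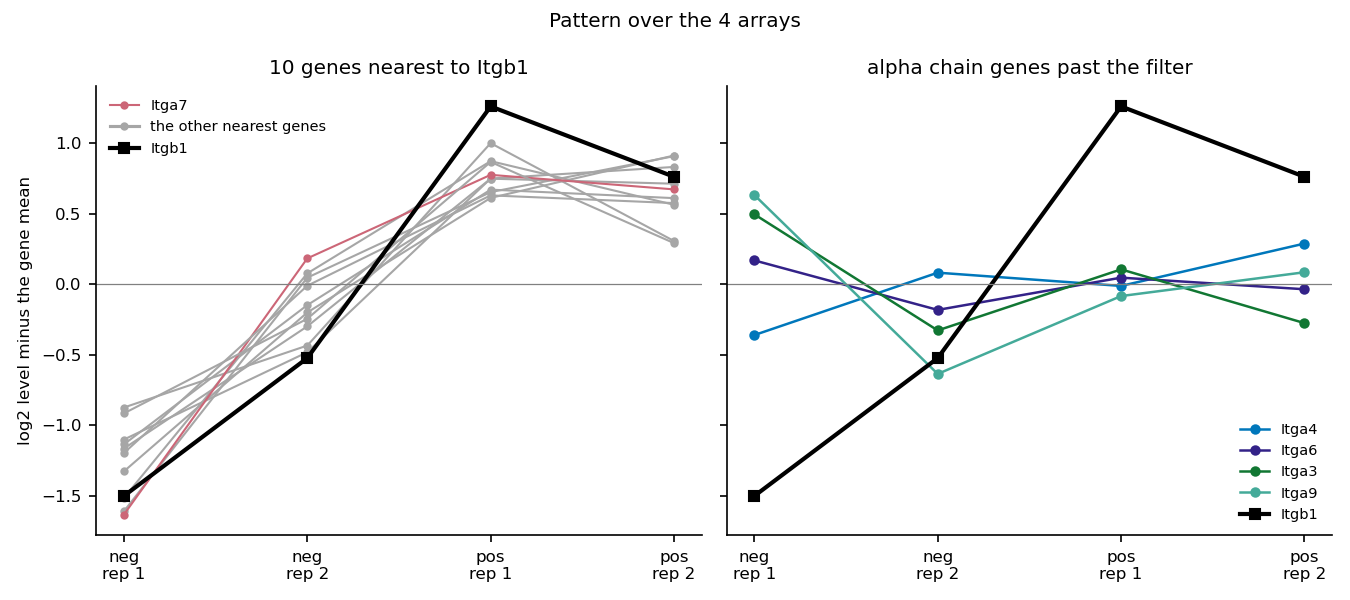
Log2 level of each gene minus its own mean on the 4 arrays, for the 10 genes nearest to Itgb1 (left, Itga7 in red) and for the 4 alpha chain genes past the filter (right), with Itgb1 in black and lines only joining values of 1 gene. Itgb1 runs from -1.50 on Nrp1-negative replicate 1 to 1.26 on Nrp1-positive replicate 1, all 10 nearest genes are lowest on Nrp1-negative replicate 1, 3 of them lie above their mean on Nrp1-negative replicate 2, and the 4 alpha chains stay between -0.64 and 0.64.

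Of the other genes of the integrin pathway, nearly all missed the threshold. The tetraspanin gene Cd81 was the only gene of 6 lists to pass with the replicate block, and none passed without it. The lists held 77 tested genes in all: other integrin chains, ligands, activators with cytoskeletal adaptors, adhesion kinases with GTPase signalling, membrane partners, and traffic with recycling. Limma without a block called 0 of 10200 genes (0%) in either direction, with 147 at an unadjusted p below 0.05. The lowest adjusted p of that fit was 0.9998. Nrp1, the gene of the sort, therefore did not pass in it either, at a mean difference of 3.68. Missing the threshold without the block thus does not show that a gene was equal in both groups. With the block it called 46 (0.451%), 29 higher (0.284%) and 17 lower (0.167%), with 878 at an unadjusted p below 0.05. Without the mean-variance trend the block fit called 0.

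Among membrane partners, 1 of 12 tested genes rose with the block and 11 did not pass, with a list median of 0.10 against 0.00 over all genes. Cd81, a tetraspanin that binds integrins and costimulates T cells, had 2782 and 3491 on Nrp1-negative replicates 1 and 2 and 5058 and 5152 on Nrp1-positive replicates 1 and 2. The groups did not overlap, and the difference was 0.86 and 0.56 (limma with the block, standard error 0.11, adjusted p = 0.0366, and adjusted p = 1.00 without it).

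Among the other integrin chains, 0 of 12 tested genes passed with or without the block, and the list median was 0.14. After Itga7, the largest differences of one sign were those of Itgb8, Itgb5 and Itgax. Itgb8, whose pair with alpha-v activates latent TGF-beta, had 381 and 809 against 1168 and 1236, a difference of 1.57 and 0.60 (limma with the block, adjusted p = 0.0855). Itgb5, another alpha-v partner, had 764 and 812 against 328 and 468, a difference of -1.18 and -0.77 (adjusted p = 0.0565 in the same fit). That Itgb5 value came from a probe set that may bind other transcripts, and the other 3 Itgb5 probe sets lay below the filter, with differences from -0.27 to 0.58. Itgax, the alpha-X chain of myeloid cells, had a mean difference of -0.54, from -0.37 in replicate 1 and -0.70 in replicate 2. Close in size was that of Itgae, the alpha-E chain that binds E-cadherin, at 0.51. The Itgae difference was 0.99 in replicate 1 but 0.04 in replicate 2. Its groups overlapped, with 3262 and 6682 against 6481 and 6875. Itgav, the alpha-v chain itself, was at 0.10 with opposite signs in the replicate numbers. With quantile normalisation and the block, Itgb8 and Itgb5 were the 2 calls of this list, which moved from 0.

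Of 20 activators and cytoskeletal adaptors, 0 passed in either fit, and the list median was 0.04. Talin and kindlin, which bind the beta tail and switch the integrin on, were singled out for that role after their values were seen. Tln1, encoding talin, had 4162 and 1818 against 4562 and 2173, and Fermt3, encoding the blood cell kindlin, had 21027 and 15561 against 20387 and 17182. The member with the largest one-way difference was Actn1, an actin crosslinker of adhesions, with 7639 and 6239 against 4922 and 4941, a difference of -0.63 and -0.34 (limma with the block, adjusted p = 0.142). It was followed by Flna at 0.27, Tns1 at -0.25 and Apbb1ip, the talin recruiter RIAM, at 0.23.

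Of 18 kinase and GTPase genes, 0 passed in either fit, and the list median was 0.02. Crkl, an adaptor downstream of adhesion kinases, differed by 0.39 (limma with the block, adjusted p = 0.257), Git1 by -0.32, Dock2 by 0.23 and Crk by 0.11. Of 11 traffic and recycling genes, 0 passed, with a median of 0.01. Eea1, a tether of early endosomes, had the largest difference there (0.40), followed by Rabgap1 (-0.29), Rab4a (0.29) and Numb (-0.15). Of 21 ligand genes, 4 passed the filter and 0 of these passed the test, with Lamc1, the laminin gamma-1 chain, at 0.54 (limma with the block, adjusted p = 0.282).

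**Figure D5:**
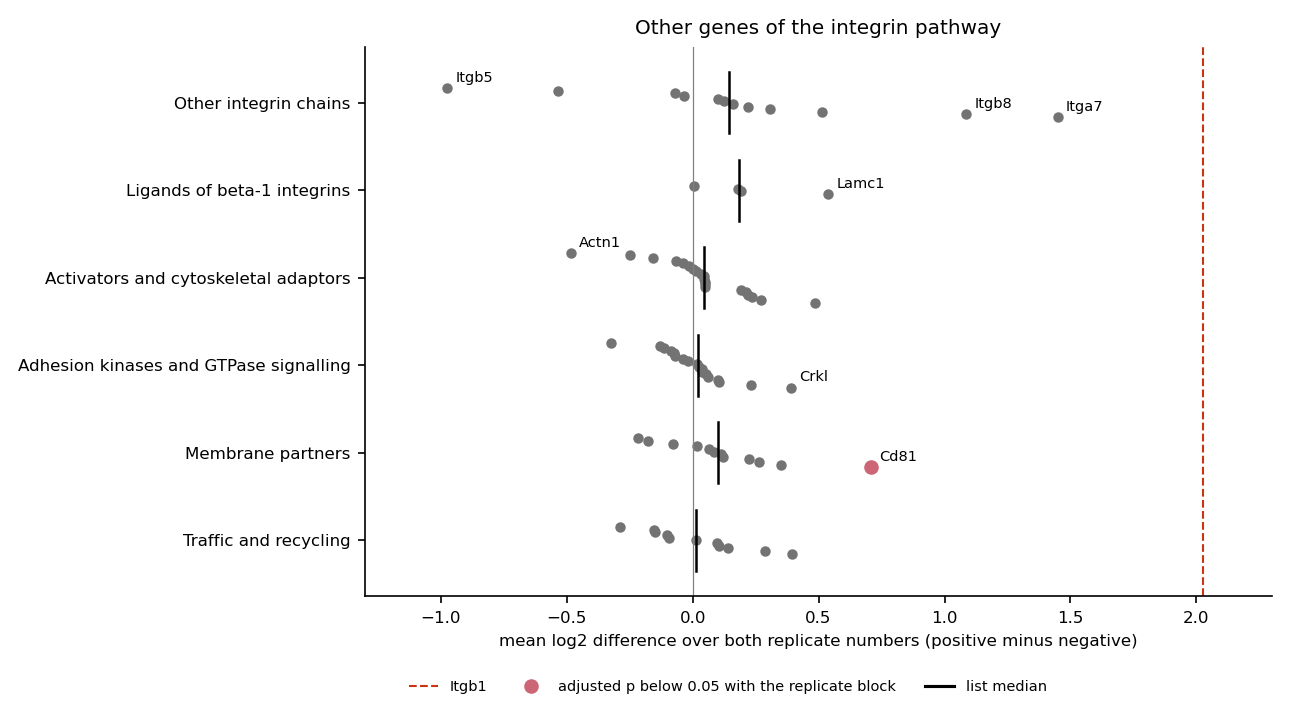
Mean log2 difference over both replicate numbers for the tested genes of 6 pathway lists (points, spread vertically so that they do not overlap), with list medians as black bars and Itgb1 as a dashed line at 2.02. The list medians lie between 0.01 and 0.19, and Cd81 (red) is the only gene past the threshold with the replicate block.

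Genes of other cells that carry beta-1 integrins were read from the same arrays. Over 7 myeloid markers, all past the filter, the summed intensity was 12761 and 52641 on Nrp1-negative replicates 1 and 2 and 15534 and 49518 on Nrp1-positive replicates 1 and 2, with the larger gap between replicate numbers. All 7 were higher on the Nrp1-positive array in replicate 1, by 0.23 to 1.06 on the log2 scale, and 6 of 7 were lower there in replicate 2; the larger Itgb1 difference at 1426918_at was also in replicate 1. Over 7 megakaryocyte and platelet markers, of which 3 passed the filter, the sum was 674 and 690 against 781 and 678. Of 5 CD8 and NK markers 3 passed the filter (sums of 731 and 1133 against 721 and 1181), of 4 measured B cell markers 1 (314 and 445 against 421 and 491), of 6 stromal and endothelial markers 1 (944 and 746 against 813 and 998), and of 3 measured erythroid markers 2 (172 and 424 against 155 and 145). The defining myeloid gene Lyz2 had 1087 and 8992 against 1602 and 8504. No marker was listed at 0. Within a replicate number, the sum on the Nrp1-positive array was 0.342 to 1.34 times that on the Nrp1-negative array in these 6 lists, the lowest being the erythroid sum of replicate 2. Of the 32 measured markers, 3 had Nrp1-positive above without overlap and 6 below, against 13.1% and 12.2% of all probe sets. The 3 above all lay below the filter: the platelet gene Gp1bb had 31.7 and 51.1 against 114 and 84.0, Cd8a had 40.2 and 19.4 against 84.4 and 72.3, and the collagen gene Col1a1 had 16.1 and 7.07 against 28.5 and 32.2. Whether such cells had a part in the differences of the member genes was not tested.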

How the data were processed

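Probe set signals came from 4 arrays of biotin-labelled total RNA extracted with Trizol, per the labels' protocols. The deposited values are linear signal intensities. Per the submitters' processing notes they come from MAS5. Its version was not given in the sources used here. The values show that scaling by the authors left trimmed means that differed 3.33-fold between replicate numbers. All arrays were therefore brought to one trimmed mean (2% trimmed at each end) and analysed as log2(intensity + 18.3), the pseudocount being 0.25 of the mean array median. Array number limits the precision of every value, and no pair of arrays held identical values (0 pairs).

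Of 45101 probe sets, 64 controls were left out, 34945 were listed with 1 gene by the platform annotation, 932 with several and 9160 with none, and 0 symbols changed through the RefSeq gene table of GRCm38.p6. For tests, the 22519 probe sets from percentile 50 of mean level upwards were kept, and a gene was represented by its probe set of highest mean, which gave 10200 genes. The comparison of groups used limma 3.58.1 (R 4.3.3; two-sided moderated test with a trended prior, Benjamini-Hochberg at 0.05), without a block and with the replicate number as a block. Array deviations from their group means correlated at 0.70 between same-numbered arrays across probe sets, and these arrays share a scaling target, so both fits are given. The test was tried on simulated data with the same residual spread for every gene, so that trial does not bear on the mean-variance trend. The member genes, lists and rules were chosen with earlier results of these data known.

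From each list the genes called in either fit are named, or else up to 4 with the largest difference of one sign in both replicate numbers. Likeness names the 10 genes of smallest distance. Upstream sequences are from RefSeq (GRCm38.p6). Alternatives covered scaling, pseudocount, filter, block, trend, averaging of probe sets, each array left out and the group of Nrp1-negative replicate 1. Drawings were made with matplotlib 3.10.9.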

Additional observations from a re-analysis of the deposited data

How the results depend on the processing

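Limma without a block called 0 genes, and 0 in every pathway list, with quantile normalisation, either other pseudocount, no filter, a filter at percentile 75 or the mean of probe sets, and between 0 and 1 genes with each array left out. With the replicate block it called 46 genes, and with quantile normalisation and the replicate block 139, of which 85 were higher and 54 lower. With the replicate block 1 membrane partner was called, and with quantile normalisation added 1 membrane partner, 2 other integrin chains and 1 activator. The block fit without the mean-variance trend called 0 genes, with 872 at an unadjusted p below 0.05. The Itgb1 difference of 2.02 was between 1.59 and 2.06 under other scaling, pseudocounts and averaging, and 0.70 with Nrp1-negative replicate 1 moved to the other group. In that grouping Itga1 was -1.93, Itga2 -0.29, Itga3 0.44, Itga4 -0.11, Itga5 0.52, Itga6 0.24 and Itga9 0.85. With a pseudocount of 1 median Itga5 was -0.047. Over arrays left out, Itgb1 ranged from 1.54 to 2.51, Itga3 from -0.58 to 0.24, Itga4 from 0.056 to 0.50 and Itga5 from -0.54 to 0.37. Itga1 ranged from -1.93 to 0.048, Itga2 from 0.15 to 1.31, Itga6 from -0.16 to 0.19 and Itga9 from -0.63 to 0.64. Leaving out an array keeps 1 replicate number in a group, so these values mix the replicate number with the group. The cause of these shifts was not tested. With 2 arrays a group, and dim signals at 14 of the 26 member probe sets, small differences of the alpha chains were not resolved.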
